A study of Mus musculus with 2 samples.

Results

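The complement-expressing alveolar macrophage subset comprised 282 of the 16932 cells that passed quality filters, 231 of 10138 in a library from tamoxifen-treated adult mice and 51 of 6794 in a library from oil-treated ones. Both were droplet libraries of single immune cells sorted from the lung. Members were chosen on their own transcript counts, as unique molecular identifiers (UMIs, each standing for 1 captured RNA molecule). A member had at least 3 UMIs in the sum of C3, Cfb and Pla2g2d and at least 5 UMIs of Chil3. It had no UMI of the T cell genes Cd3d, Cd3e and Cd3g, of the B cell gene Cd79a or of the dendritic cell genes Xcr1 and Clec9a, and at most 1 UMI of the fibroblast genes Col1a2 and Dcn. Because these counts defined the cells, the levels of the 4 chosen genes describe the choice and were not tested.

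All mice carried Gli1creERT, in which the Gli1 gene drives a tamoxifen-inducible Cre recombinase, and floxed alleles of Hhip, a membrane protein that binds Hedgehog ligands. The tamoxifen library came from mice in which tamoxifen activates that Cre, and the oil library from mice of the same genotype given oil. An antibody to CD45 was given into the circulation shortly before death, so that sorting of CD45-positive cells not marked by it left tissue-resident immune cells. Each condition was 1 library, no tamoxifen library without Cre was among them, and the labels do not give the number, sex or age of the mice beyond adult. Each library held cells with Xist and cells with Y-linked transcripts, so at least 1 female and 1 male mouse contributed to each. With 1 library per condition there is no replicate and no test: every difference between conditions is a difference between these 2 libraries, and effects of Cre activity, of tamoxifen and of the individual mice cannot be told apart. All 95% intervals cover counting error only.

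Complement C3 is the protein on which all activation routes of the complement cascade converge, and Cfb (complement factor B) is the protease component of the alternative route, which amplifies C3 cleavage. Both are made mainly by the liver and are also produced in tissues by macrophages and mesenchymal cells. Alveolar macrophages are self-maintaining macrophages of the airspaces that clear surfactant and debris, depend on GM-CSF and TGF-beta, and express the chitinase-like protein Chil3 at high levels. Pla2g2d is a secreted phospholipase A2 described in mice as limiting inflammation through lipid mediators.

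The libraries held 83730550 UMIs in 12980 barcodes after tamoxifen and 57704412 UMIs in 10342 barcodes after oil, and the median kept cell had 6431 and 6360.5 UMIs. Only 41 barcodes occurred in both libraries, and 1 member, in the tamoxifen library, carried such a barcode. Hhip, the targeted gene, had 29 UMIs in 13 kept cells after tamoxifen and 40 UMIs in 24 cells after oil, and Gli1 had 9 UMIs in each library. No member had a UMI of either gene. The deleted part of Hhip may lie outside the counted 3' ends, and no source used here places it, so these counts do not check the deletion.

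The upstream sequences of 4 genes are shown. C3 and Pla2g2d define the subset from different chromosomes, H2-M2 ranked first among the genes shared by the subset in both libraries, and Cxcl9 was higher in the tamoxifen subset than in the oil subset. Each run gives the 250 bases before the annotated start, 5' to 3' on the strand of the gene, from RefSeq on GRCm38.p6. For C3, Pla2g2d, H2-M2 and Cxcl9 in that order they are chr17:57228137-57228386 on the minus strand, chr4:138775485-138775734 on the plus strand, chr17:37483555-37483804 on the minus strand and chr5:92328080-92328329 on the minus strand. Capitals mark matches to a motif, of which 3 were searched on both strands and could overlap: GAAANNGAA (a core of interferon-stimulated response elements), GGGANNTTC (the first bases of a common NF-kB site) and TTCNNNGAA (a STAT core).
C3: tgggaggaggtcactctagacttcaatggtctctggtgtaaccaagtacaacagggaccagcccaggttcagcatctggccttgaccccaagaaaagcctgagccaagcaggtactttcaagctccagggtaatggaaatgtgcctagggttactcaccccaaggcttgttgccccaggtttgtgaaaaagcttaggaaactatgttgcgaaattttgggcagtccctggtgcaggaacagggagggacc
Pla2g2d: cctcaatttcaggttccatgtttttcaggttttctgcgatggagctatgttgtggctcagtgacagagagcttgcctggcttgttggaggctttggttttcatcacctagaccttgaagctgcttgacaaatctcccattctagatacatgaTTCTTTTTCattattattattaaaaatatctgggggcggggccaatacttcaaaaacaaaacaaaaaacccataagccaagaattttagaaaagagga
H2-M2: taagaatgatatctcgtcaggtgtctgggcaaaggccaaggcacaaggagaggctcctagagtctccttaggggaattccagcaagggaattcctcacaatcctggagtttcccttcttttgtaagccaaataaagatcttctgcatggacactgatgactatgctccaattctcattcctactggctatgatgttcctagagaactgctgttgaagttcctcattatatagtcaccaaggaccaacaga
Cxcl9: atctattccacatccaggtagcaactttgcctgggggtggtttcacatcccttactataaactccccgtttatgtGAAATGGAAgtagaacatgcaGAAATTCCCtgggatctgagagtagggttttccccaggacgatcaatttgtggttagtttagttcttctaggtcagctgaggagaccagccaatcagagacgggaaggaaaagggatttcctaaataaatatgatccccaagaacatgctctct
Of 6 genes looked up (C3, Cfb, Pla2g2d, H2-M2, Inhba and Cxcl9), 5 had a promoter entry of 250 bases before to 50 bases after the start. GAAANNGAA matched in Pla2g2d, on the opposite strand, and in Cxcl9, GGGANNTTC matched in Cxcl9, on the opposite strand, and C3, H2-M2 and Inhba had no match to any of the 3. Among all 32851 promoter windows of the same length 8.56% held GAAANNGAA, 3.94% held GGGANNTTC and 8.30% held TTCNNNGAA. A match is a string of letters in this window and not a measured binding site. The 3 strings do not cover every form of these sites, and other forms were not searched. The lack of a match in C3, H2-M2 and Inhba therefore does not show that such a site is absent.

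C3 carried most of the choice. C3 had at least 1 UMI in 227 of 231 tamoxifen members and in all 51 oil members, and its summed level was 445 counts per 1000000 UMIs (CPM) in tamoxifen members and 249 CPM in oil members. Cfb was found in 133 tamoxifen members (132 CPM) and in 23 oil members (43.2 CPM). Pla2g2d was found in 37 tamoxifen members (16.0%, 70.2 CPM) and in 16 oil members (31.4%, 61.5 CPM). Most members therefore lay close to the threshold: the summed UMIs of the 3 genes ran from 3 to 101 with a median of 4 in tamoxifen members and from 3 to 25 with a median of 4 in oil members. Single cells reached 43 UMIs of C3, 31 of Cfb and 31 of Pla2g2d after tamoxifen, against 20, 4 and 10 after oil. Free RNA or doublets can place such UMIs in cells that do not make them, and the part of each was not tested. Cells with at least 3 UMIs of Cd3d, Cd3e and Cd3g should lack C3. After tamoxifen 5.24% of 4100 such cells had a C3 UMI (775 UMIs in 215 cells, median depth 5464 UMIs). After oil 1.73% of 2366 had one (88 UMIs in 41 cells, median depth 5974 UMIs). The members' median depth was 12703 UMIs after tamoxifen and 14812 UMIs after oil.

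The joint detection of the 3 transcripts is given as a description, since they are the genes of the rule and the alveolar macrophages counted include the members, of which 13 after tamoxifen and 7 after oil had fewer than 3 alveolar macrophage markers and were counted for their sum. With every alveolar macrophage thinned to 3000 UMIs, C3 and Cfb were both found in 40 of 1475 tamoxifen cells, where independent detection would give 21.0, and in 6 of 232 oil cells, where it would give 2.53. Of C3-positive tamoxifen cells 13.3% held Cfb, against 5.37% of C3-negative ones, and the same shares after oil were 12.2% and 3.28%. Pla2g2d was found in 4.65% of C3-positive and 0.341% of C3-negative tamoxifen cells, and in 6.12% and 3.28% of oil cells, where C3 and Pla2g2d were together in 3 cells against 1.90 under independence. After tamoxifen all 3 were found in 9 cells, and after oil in none of 232, where 3 cells would be 1.29%.

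Most C3 UMIs lay outside the members. They held 19.0% of all C3 UMIs of kept cells after tamoxifen and 7.50% after oil, 24.2% and 19.8% of Cfb UMIs, and 33.8% and 15.9% of Pla2g2d UMIs. Cells with at least 5 UMIs of Col1a2 and Dcn, 71 after tamoxifen and 75 after oil, had the higher C3 level, at 1520 and 1256 CPM. Macrophages with at least 10 UMIs of C1qa, C1qb and C1qc held 25.7% of Pla2g2d UMIs after tamoxifen and 63.2% after oil.

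Most members carried the alveolar macrophage programme. All of Ear1, Ear2, Krt79, Fabp1 and Plet1 were detected in 168 tamoxifen and 20 oil members, 4 of them in 45 and 19, 3 of them in 5 and 5, and fewer than 3 in 13 and 7. Ear1 and Ear2 belong to a family of near-identical copies, so counts of each are uncertain. The 20 alveolar macrophage markers summed to 10988 CPM in tamoxifen members and 10668 CPM in oil members. In the comparison cells, 739 tamoxifen and 129 oil alveolar macrophages with no UMI of the 3 transcripts and at least 3 of the 5 markers, they summed to 11734 and 11592 CPM. The comparison cells passed the same exclusions and Chil3 minimum, and had median depths of 8684 and 8041 UMIs. The label therefore held for 218 of 231 tamoxifen and 44 of 51 oil members by these markers. Of the 13 tamoxifen members with fewer than 3 of the markers, 2 carried neutrophil genes, 3 had 10 or more UMIs of C1qa, C1qb and C1qc and 8 had neither, and of the 7 such oil members 1 had the C1q genes and 6 had neither. The 2 with neutrophil genes held 1640 of the 1642 Ngp UMIs and 8619 of the 8655 S100a9 UMIs of all members, both genes of neutrophil granules and cytosol.

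Markers of other cell types were present at lower sums than the alveolar macrophage markers, and several exceeded those of comparison cells. The 12 interstitial macrophage markers summed to 434 CPM in tamoxifen members and 202 CPM in comparison cells, and to 536 CPM in oil members and 381 CPM in comparison cells, with Folr2 at 0 throughout. In oil members 1 cell held 41.6% of that sum, the list median was -0.44 with 3 of 8 above no difference, and members with at least 3 of the 5 markers had 203 CPM, below their comparison cells, whereas such tamoxifen members had 385 CPM. C1qa, C1qb and C1qc together had 10 or more UMIs in 13 tamoxifen and 2 oil members. The 10 markers of a macrophage state with Ly6i, Chil1 and Gpnmb summed to 2385 CPM in tamoxifen members and 1854 CPM in comparison cells, and to 3489 and 1411 CPM after oil. Of these, Cxcl9, Inhba and Fabp5 passed 2-fold after tamoxifen and Gpnmb, Vegfa, Inhba and Fabp5 after oil, so that genes described here for the subset are also markers of that state. Chil1 was at 0 in oil members, and Ly6i and Chil1 were at 0 in oil comparison cells. The 7 mature dendritic cell markers summed to 309 and 137 CPM after tamoxifen, with all 7 detected in members, and to 648 and 204 CPM after oil, with Fscn1 and Cacnb3 at 0 in members. The 10 monocyte markers summed to 1285 CPM in tamoxifen members and 1153 CPM in comparison cells, and to 996 and 780 CPM after oil. Fibroblast markers summed to 7.47 CPM in tamoxifen members and 7.86 CPM in oil members, and of 5 platelet markers only Pf4 had a UMI in members. The part of these cell types in the results was not tested.

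**Figure D1:**
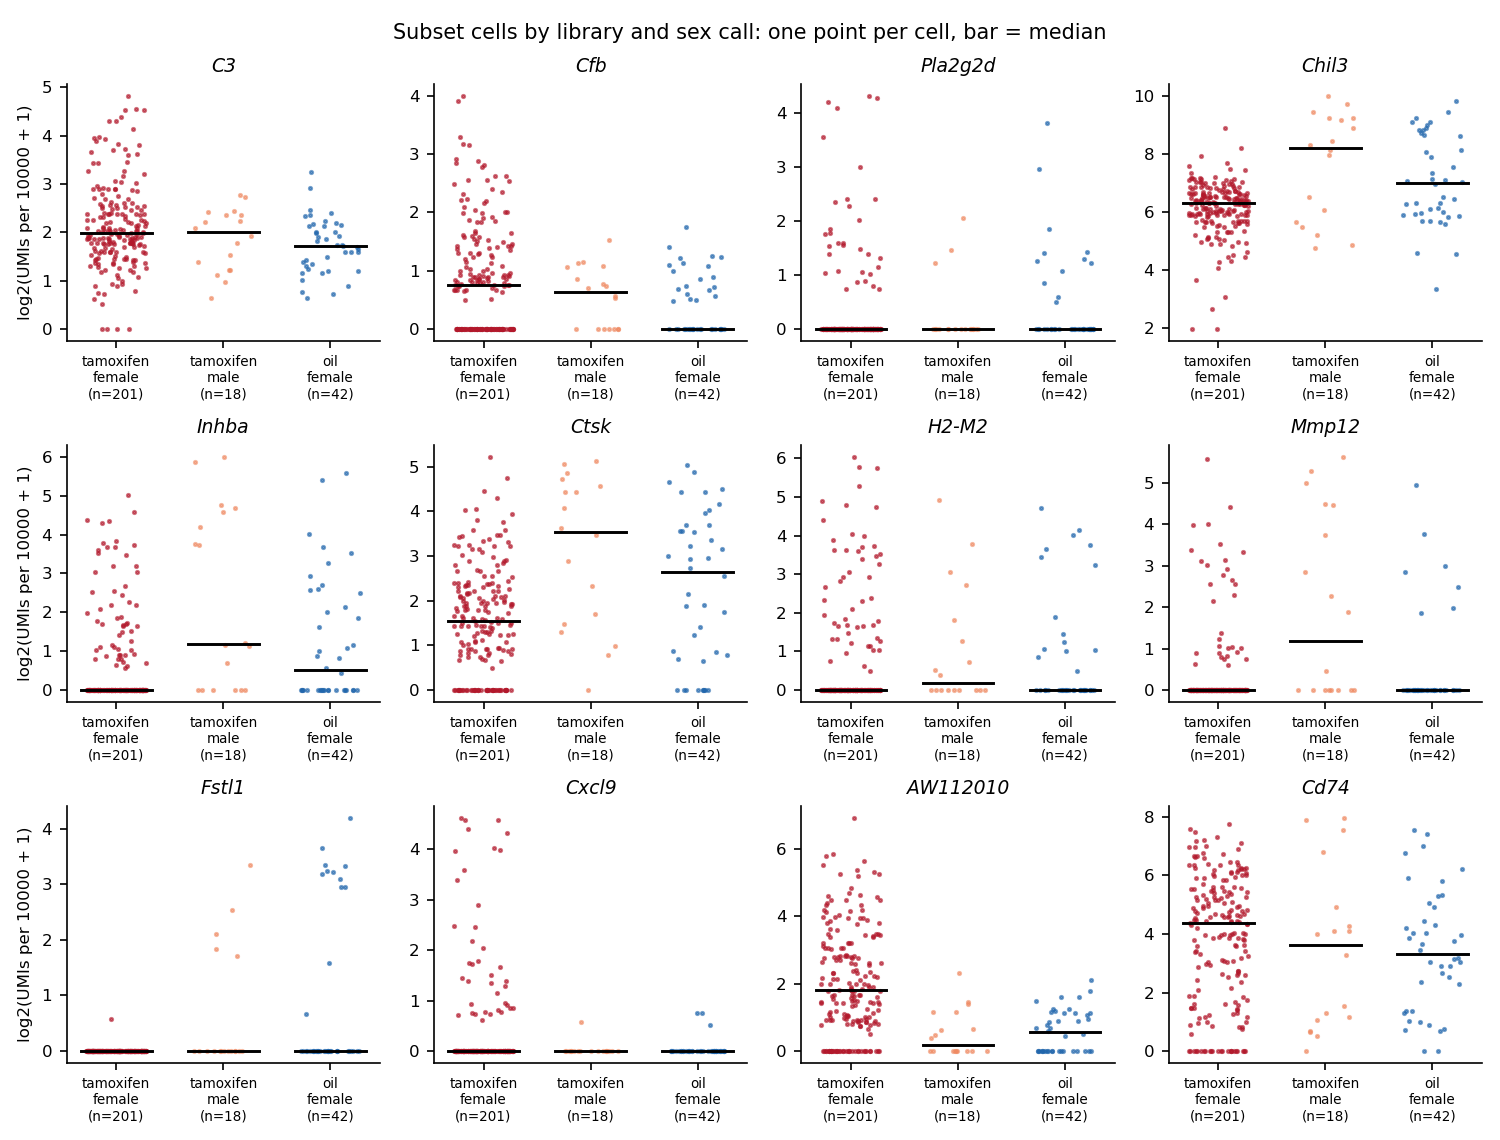
Level of 12 genes in each subset cell, as log2 of UMIs per 10000 plus 1, for cells called female after tamoxifen (n = 201), male after tamoxifen (n = 18) and female after oil (n = 42); bars mark the median, cells without a sex call are left out, and no oil member was called male. Fstl1 was high mainly in some male tamoxifen and female oil cells, and Cxcl9 in some female tamoxifen cells, while C3 overlapped throughout.

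A gene was called past the fold where it differed at least 2-fold with at least 30 UMIs and 50 CPM on the higher side. In the tamoxifen library 65 of 3287 genes were higher (1.98%) and 6 lower (0.183%, 2.16% in either direction) in members than in comparison cells, and in the oil library 102 of 3315 were higher (3.08%) and 106 lower (3.2%, 6.27% in either direction). In both libraries 32 of 3055 genes were higher (1.05%) and 1 was lower (0.0327%). Leaving out the chosen genes and unnamed gene models, 29 higher genes remained, of which 15 are described. Among members with at least 3 of the 5 markers 24 genes were higher in both libraries, against comparison cells matched on depth 23, and among female cells alone 17.

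H2-M2, a non-classical MHC class I gene at chr17:37480851-37483552 on the minus strand, ranked first by the bound nearest to no difference. Its summed level was 332 CPM in tamoxifen members and 8.52 CPM in their comparison cells (log2 ratio 5.28, 4.89 to 5.70), and 292 CPM in oil members and 10.5 CPM in their comparison cells (4.80, 3.93 to 5.82). It was found in 63 of 231 tamoxifen members and 21 of 51 oil members, so most members lacked it, and the highest cell had 64.3 and 69.6 UMIs per 10000. At 3000 UMIs per cell 19.7% of tamoxifen members and 1.01% of their comparison cells held it, and 20% of oil members and 1.92% of theirs. The log2 ratio was 6.53 after tamoxifen and 4.22 after oil in female cells, 4.42 and 5.21 against depth-matched cells, and 5.09 and 4.48 without the cell with most H2-M2. H2-Q7, another class I gene with close copies, was higher by smaller ratios of 1.89 after tamoxifen (87.4 against 23.6 CPM) and 2.01 after oil (107 against 26.7 CPM).

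Members with and without H2-M2 differed in other genes that the rule did not use. After tamoxifen, members with H2-M2 had 880 CPM of Ctsk, 635 CPM of Cd63, 616 CPM of Inhba and 5522 CPM of Cd74, against 319, 159, 175 and 3004 CPM in members without it. After oil the same genes were at 1016, 967, 827 and 6147 CPM in members with H2-M2, against 684, 365, 119 and 1741 CPM in members without it. Members with H2-M2 had a median of 14843 UMIs and those without 12322 after tamoxifen, and 14812 and 14592 after oil.

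Inhba, whose product forms activin A, a secreted TGF-beta family ligand, and Ctsk were markers of the label that the rule did not use. Inhba was at 317 CPM in tamoxifen members and 58.7 CPM in comparison cells (2.43, 2.26 to 2.61), and at 439 CPM in oil members and 35.2 CPM in comparison cells (3.64, 3.15 to 4.17). It was found in 72 of 231 tamoxifen and 26 of 51 oil members. Among female cells the Inhba ratio was smaller, at 1.45 after tamoxifen and 2.61 after oil, and among male tamoxifen cells it was 7.47. Ctsk, the collagen-degrading cathepsin K, was at 499.7 CPM in tamoxifen members and 209 CPM in comparison cells (1.26, 1.15 to 1.36), and at 834 CPM in oil members and 216 CPM in comparison cells (1.95, 1.73 to 2.17). In female tamoxifen cells the Ctsk ratio was 0.83, below 2-fold. Single cells spread widely, since the median member had 2.07 Ctsk UMIs per 10000 after tamoxifen and 4.45 after oil, with 42.9 and 40.3 in the highest cells, while the median for Inhba was 0 and 0.367, with 62.6 and 46.6 in the highest cells. Chil3, which the rule required, was at 11527 CPM in tamoxifen members and 7101 CPM in comparison cells, and at 24529.8 CPM in oil members and 7622 CPM in comparison cells.

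Matrix, lysosome and lipid genes were among the other shared genes. Mmp12, a macrophage elastase, was at 263 CPM in tamoxifen members and 19.3 CPM in comparison cells (3.76), and at 625 CPM in oil members and 102 CPM in comparison cells (2.62), but its ratio among female oil cells was 0.17. Cd63, a lysosome and exosome tetraspanin, was higher by 2.20 after tamoxifen (312 against 67.9 CPM) and 2.67 after oil (636 against 99.97 CPM). Of 20 cathepsin and lysosome genes, 17 of 20 measured lay above no difference after tamoxifen with a median log2 ratio of 0.30, and 15 of 19 after oil with a median of 0.41, where all genes had medians of -0.07 and -0.08. Ctsk and Acp5 (tartrate-resistant acid phosphatase, 1.22) passed 2-fold after tamoxifen, and Ctsb, Ctsk, Ctsl, Ctsz and Acp5 (2.06) after oil.

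Of 24 lipid handling genes Fabp5, Apoe and Trem2 passed 2-fold upward in both libraries. Fabp5, a fatty acid binding protein, was at 616 CPM in tamoxifen members and 283 CPM in comparison cells (1.13), and at 1587 CPM in oil members and 412 CPM in comparison cells (1.94). Apoe rested on few cells: 1 cell held 41.4% of its UMIs in tamoxifen members and 91.3% in oil members, and without it the ratios of 2.23 and 2.99 became 1.47 and -0.48. Gpnmb passed only after oil (409 against 165 CPM), and Cidec, Abca1 and Fabp1 were at least 2-fold lower there. Among female tamoxifen cells Fabp5 (0.85) and Trem2 (0.89) were below 2-fold, as was Trem2 among tamoxifen members with at least 3 of the 5 markers (0.99). The whole list had medians of -0.07 and 0.31.

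Further shared genes were of mixed function. Rnase2a, an eosinophil-type ribonuclease whose family includes close copies, was higher by 4.41 after tamoxifen (80.9 against 3.80 CPM) and 3.65 after oil (119 against 9.52 CPM). Among members with at least 3 of the 5 markers its ratios were 3.46 and 1.43. In female cells they were 2.22 and 3.13, and in male tamoxifen cells the ratio was 6.89. AA467197, the mouse counterpart of the mitochondrial NMES1 gene, was at 147 CPM in tamoxifen members and 18.0 CPM in comparison cells (3.03), and at 177 CPM in oil members against a single UMI in comparison cells (7.54, 5.03 to 12.85). Chchd10, a mitochondrial protein, was at 72.8 CPM in tamoxifen members and 18.3 CPM in comparison cells, and at 158 and 14.3 CPM after oil. Ly75 (the endocytic receptor DEC-205, 1.44 and 1.66) and Wfdc17 (a small secreted WAP-domain protein, 1.57 and 1.57) were higher in both. Among female cells Chchd10 after tamoxifen (0.90) and Wfdc17 after oil (0.89) were below 2-fold. Fbp1, a gluconeogenic enzyme, was found in 8 tamoxifen members, at 51.0 CPM against a single UMI in comparison cells (8.39, 5.89 to 13.70), and in 5 oil members, at 123 CPM against 16.2 CPM. After tamoxifen a ratio of Fbp1 was obtained among male cells but not among female cells, which were most of the members. No ratio is given where 1 side has no UMI and the other at most 3. With a single Fbp1 UMI in the comparison cells, female members therefore held at most 3 Fbp1 UMIs. The tamoxifen excess of Fbp1 thus lay outside the members called female. After oil its ratio among female cells was past 2-fold. Pf4, the chemokine platelet factor 4, was at 111 and 257 CPM in tamoxifen and oil members and at 10.8 and 23.8 CPM in comparison cells, but 1 oil cell held 86.2% of its UMIs, and among oil members with at least 3 of the 5 markers the ratio was -0.07. Marco, a scavenger receptor, was higher by 1.62 and 1.38, though not among male tamoxifen cells (-0.19). The only shared lower gene was Acaa1b, a peroxisomal thiolase, at 109 CPM in tamoxifen members and 227 CPM in comparison cells (-1.06), and at 79.9 CPM in oil members and 254 CPM in comparison cells (-1.67). Its tamoxifen ratio was just short of 2-fold among members with at least 3 of the 5 markers (-0.97).

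**Figure D2:**
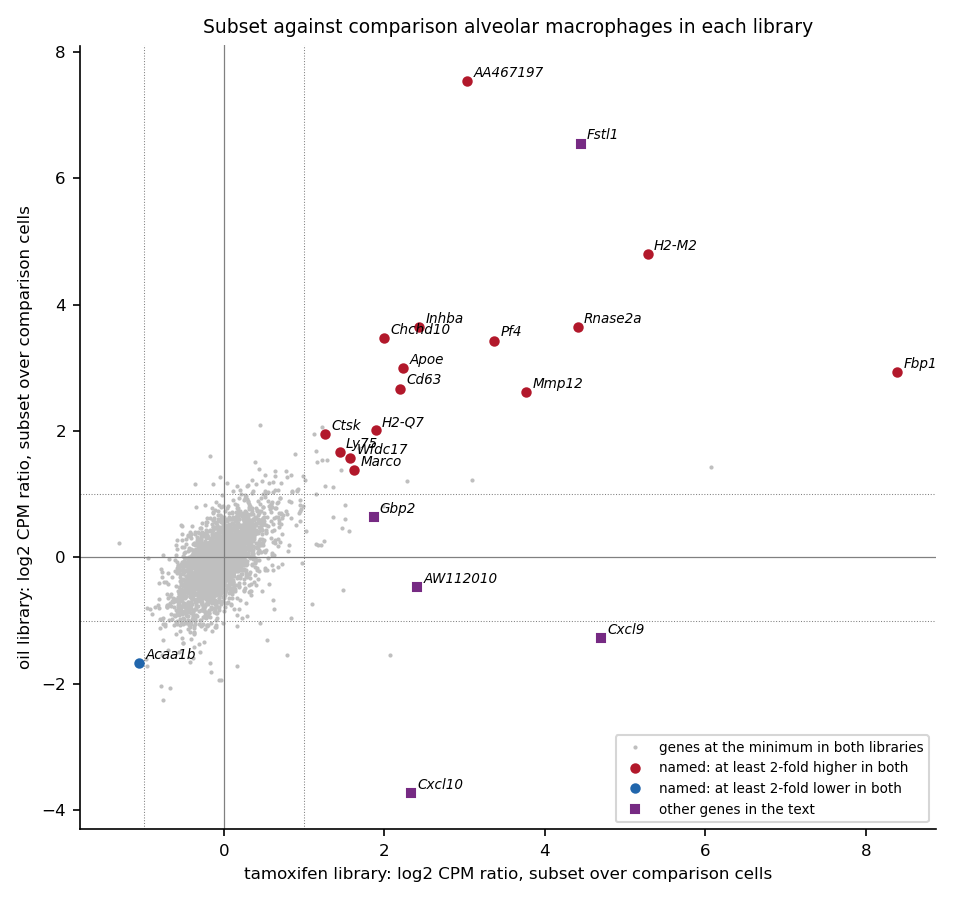
Log2 ratio of summed CPM in the subset over comparison alveolar macrophages, in the tamoxifen library (x axis) and the oil library (y axis), 1 point per gene; dotted lines mark 2-fold. The 15 named higher genes lie past 2-fold on both axes, among them Ctsk (1.26 and 1.95) and H2-M2 (5.28 and 4.80), with Fbp1 furthest right of them at 8.39 and AA467197 highest at 7.54, and Cxcl10, Cxcl9 and AW112010 lie to the right only.

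Most complement genes beyond C3 and Cfb had too few UMIs to be called. The 7 terminal pathway genes had too few UMIs to measure in either library. Of 16 listed classical and lectin pathway genes only 3 in each library reached the minimum for a call, and none of them passed 2-fold. Of 12 regulators 1 in each library reached it, and of 9 receptors 4 after tamoxifen and 5 after oil, of which only C5ar1 passed, after oil. Cfp (properdin, which stabilises the alternative convertase) was at 76.4 CPM in tamoxifen members and 44.3 CPM in comparison cells (0.79), and at 64.2 CPM in oil members and 40.0 CPM in comparison cells (0.68). C5ar1, the receptor for the C5a fragment, was at 110.5 CPM in tamoxifen members and 187 CPM in comparison cells (-0.76), and passed 2-fold downward after oil, at 38.0 CPM in members and 181 CPM in comparison cells (-2.25). Of the complement-binding receptors Itgam had ratios of 2.60 and 2.21 and C3ar1 1.43 and 1.78, on few UMIs (68 and 27 of Itgam, and 29 and 15 of C3ar1, in tamoxifen and oil members).

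Interferon-gamma induced genes went with the subset in the tamoxifen library. Of 20 listed, 14 of 15 measured lay above no difference after tamoxifen (median 1.41), and Gbp2, Cxcl9 and Cxcl10 were among those past 2-fold, of 7 with enough UMIs for a call. Over all genes 4354 of 10247 measured lay above no difference there and 1.98% were called higher. After oil 5 of 11 lay above (median -0.20), against 3224 of 7263 over all genes, and of 5 with enough UMIs none passed 2-fold upward, and Irf1 and Cxcl10 passed it downward. Cxcl9, a chemokine for CXCR3-bearing lymphocytes, was at 135 CPM in tamoxifen members and 5.17 CPM in comparison cells (4.70, 4.20 to 5.25), but at 3.93 CPM in oil members, from 3 UMIs, and 9.52 CPM in comparison cells (-1.28, -3.78 to 0.68). It was found in 44 of 231 tamoxifen members and 3 of 51 oil members. AW112010, an interferon-responsive transcript, was at 693 CPM in tamoxifen members and 131 CPM in comparison cells (2.41), and at 73.3 CPM in oil members and 102 CPM in comparison cells (-0.47). Gbp2, a guanylate-binding protein, was at 154 and 42.3 CPM after tamoxifen (1.87) and 45.8 and 29.5 CPM after oil (0.63).

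MHC class II genes were higher in members after tamoxifen, with a smaller ratio after oil. After tamoxifen 9 of 10 lay above no difference (median 1.18), with H2-Aa (1.55), H2-Ab1 (1.51) and Cd74 (1.47) past 2-fold. After oil 7 of 9 lay above (median 0.47) and none passed 2-fold. The members themselves had like levels, with Cd74 at 3814 CPM after tamoxifen and 3728 CPM after oil, while comparison cells had 1375 and 2692 CPM. Against depth-matched tamoxifen cells the ratios were 0.85 for H2-Aa, 0.77 for H2-Ab1 and 0.75 for Cd74, below 2-fold. Among oil members with at least 3 of the 5 markers the class II median was -0.21.

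**Figure D3:**
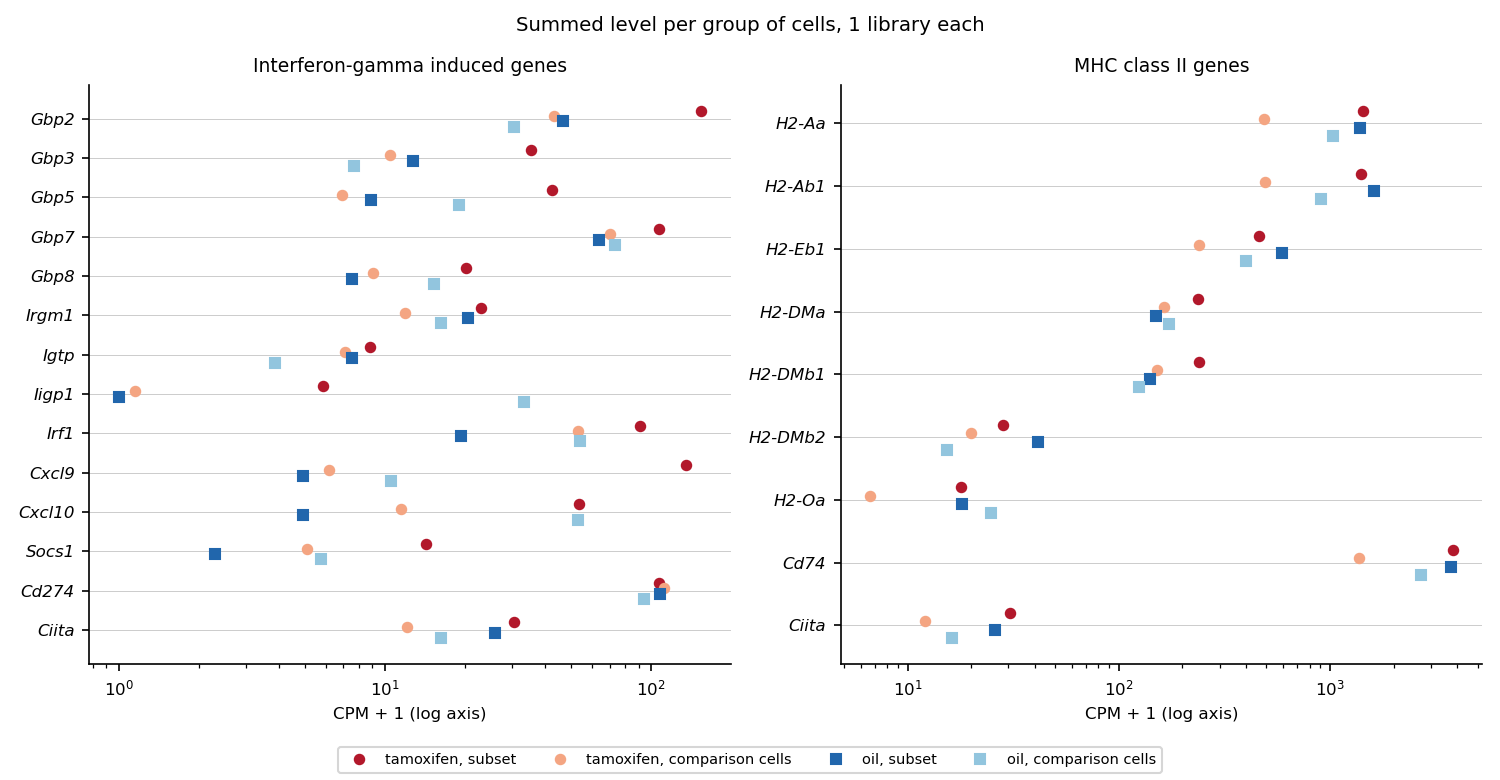
Summed level (CPM plus 1, log axis) of interferon-gamma induced genes (left) and MHC class II genes (right) in subset and comparison cells of the tamoxifen library (circles) and the oil library (squares). Gbp2 and Cxcl9 were highest in the tamoxifen subset, at 154 and 135 CPM, whereas Cd74 was about as high in both subsets, at 3814 and 3728 CPM.

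Chemokine, inflammatory and proliferation genes gave a mixed picture. Of 20 chemokines 11 had enough UMIs for a call after tamoxifen and 13 after oil. Ccl9, Ccl17, Cxcl3, Cxcl9, Cxcl10 and Cxcl16 passed 2-fold upward after tamoxifen. After oil Ccl17, Ccl22, Cxcl3 and Cxcl16 did, and Ccl2, Ccl4, Ccl7, Ccl12 and Cxcl10 passed it downward. Over all genes 1.98% were called higher after tamoxifen, and 3.08% higher and 3.2% lower after oil. Cxcl3, a neutrophil chemokine, was at 359 CPM in tamoxifen members and 42.0 CPM in comparison cells (3.10), and at 86.4 and 37.1 CPM after oil (1.22). Il1b was higher in tamoxifen members (726 against 338 CPM, 1.10) but at 253 against 424 CPM after oil (-0.75), and Tnf was lower after tamoxifen (56.2 against 114 CPM, -1.02). Of 13 cell cycle genes 12 lay above no difference after tamoxifen (median 1.09) and 2 of 6 after oil. Over all genes 4354 of 10247 and 3224 of 7263 did. Only 3 cell cycle genes after tamoxifen and 2 after oil had enough UMIs for a call. Mki67 passed 2-fold in both, at 57.8 CPM in tamoxifen members and 22.5 CPM in comparison cells (1.36), and at 90.3 CPM in oil members and 41.9 CPM in comparison cells (1.11), although without its highest oil cell the ratio was 0.49.

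Other regulatory and effector groups differed in few members. Of 29 GM-CSF and TGF-beta signalling genes Inhba alone passed 2-fold after tamoxifen (12 of 21 above no difference, median 0.04), and Inhba and Fstl1 after oil (11 of 19, median 0.15). The GM-CSF receptor chain Csf2ra (0.06 and 0.17), the ligand Tgfb1 (0.04 and 0.16) and the lipid regulator Pparg (-0.43 and -0.06) had small ratios. Of 20 phospholipase A2 and eicosanoid genes Pla2g2d and Pla2g7, a secreted platelet-activating factor hydrolase (50.0 against 12.5 CPM), passed it after tamoxifen, and Pla2g2d and Ptgs2, the inducible cyclooxygenase (72.0 against 20.9 CPM), after oil. Pla2g7 was not called among female tamoxifen cells or tamoxifen members with at least 3 of the 5 markers, nor Ptgs2 in either such group after oil, so of these 3 genes Pla2g2d, which the rule used, was called throughout. The inhibitory antibody receptor Fcgr2b passed it in both, with ratios of 1.28 and 1.55, but among members with at least 3 of the 5 markers the ratios were 0.78 and 0.63, below 2-fold. The 20 alveolar macrophage markers had medians of -0.09 and -0.09, with Marco higher in both libraries and Fabp1, Cidec and Ear6 lower after oil. Immediate early and heat shock genes, which tissue dissociation can induce, lay mostly below no difference, with 3 of 17 above after tamoxifen (median -0.17) and 2 of 17 after oil (median -0.37).

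Of the 641 alveolar macrophages with 1 or 2 summed UMIs, those with 2 lay just outside the rule, and members with 3 lay just inside. Ctsk was at 260 CPM just outside and 278 CPM just inside after tamoxifen, and at 550 and 623 CPM after oil. H2-M2 was at 24.2 CPM just outside and 18.5 CPM just inside after tamoxifen, while after oil it was at 9.53 and 293 CPM. Of the 98 H2-M2 UMIs just inside after oil, 1 cell with none of the 5 markers held 49 and another cell held 24. Cells just outside had to have at least 3 of the 5 markers, and members did not. The high values lay in cells well inside the rule: in the 43 tamoxifen cells with over 10 summed UMIs H2-M2 reached 1205 CPM, Ctsk 993 CPM and Cxcl9 538 CPM, whereas Cxcl9 was at 33.9 CPM in the 45 cells with 6 to 10 and at 18.5 CPM or less in cells with fewer. The Cxcl9 excess of the tamoxifen subset was thus largely that of cells with over 10 summed UMIs. Fabp1 ran the other way, at 353 CPM in those 43 cells and 1003 CPM in the 86 cells with 3. Depth rose along the same axis, with median UMIs of 11315 in cells with 3 summed UMIs and 15495 in cells with over 10, and its part in these trends was not tested beyond the depth-matched values above.

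**Figure D4:**
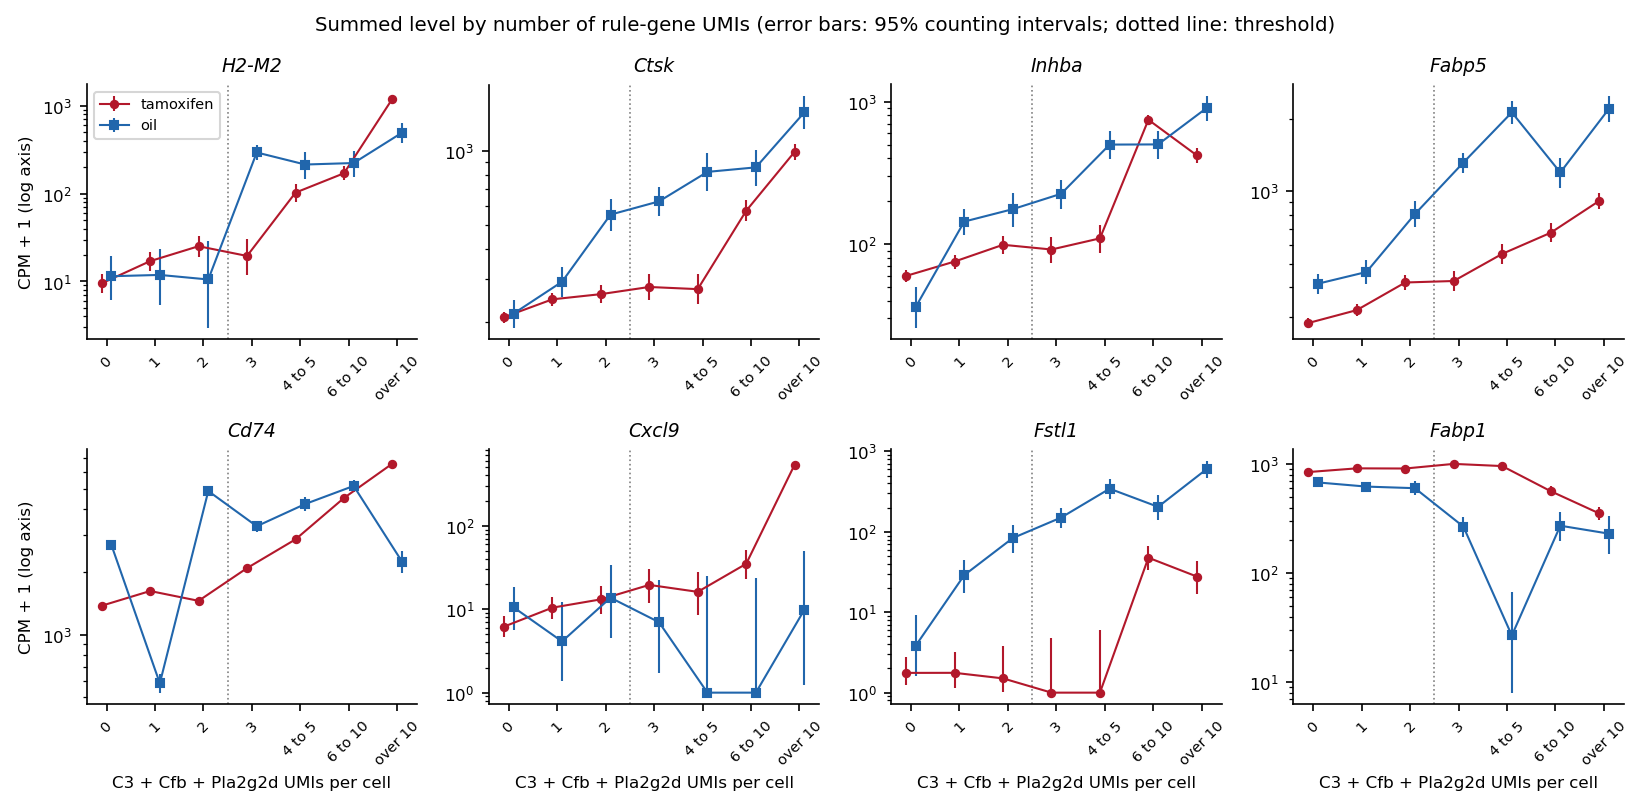
Summed level (CPM plus 1, log axis) of 8 genes in alveolar macrophages grouped by their UMIs of C3, Cfb and Pla2g2d, for tamoxifen and oil; error bars are 95% counting intervals and the dotted line is the threshold of 3. After tamoxifen Cxcl9 reached 538 CPM in cells with over 10 such UMIs against 5.17 CPM in cells with 0, and after oil Fstl1 reached 601 CPM against 2.86 CPM.

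The share of the subset depended on what it was counted among. Members were 15.1% of 1528 alveolar macrophages after tamoxifen (exact binomial interval 13.4% to 17.01%) and 19.4% of 263 after oil (14.8% to 24.7%), a log2 ratio of -0.36 (-0.75 to 0.04). Of all kept cells they were 2.28% after tamoxifen and 0.751% after oil (1.60). The alveolar macrophages themselves were 1528 of 10138 kept cells after tamoxifen and 263 of 6794 after oil. The rule counts raw UMIs. Applied anew to cells thinned to 3000 UMIs, it gave 73 of 1632 after tamoxifen (4.47%) and 9 of 234 after oil (3.85%), a log2 ratio of 0.22 (-0.76 to 1.20). Cells that fail an exclusion at full depth can pass it when thinned, so these were not the same alveolar macrophages. The share with any UMI of the 3 genes at that depth was 24.9% after tamoxifen and 26.3% after oil. No setting gave a direction for the share of alveolar macrophages that counting error would not cover, other than the split by sex on raw UMIs.

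Female cells made up most of the subset, and no oil member was called male. Cells were called female with Xist and no Y-linked UMI and male in the reverse case, which gave 201 female, 18 male and 12 uncalled members after tamoxifen, and 42, 0 and 9 after oil. Among female alveolar macrophages the subset was 15.4% of 1305 after tamoxifen and 28.2% of 149 after oil (-0.87, -1.28 to -0.46). Among male ones it was 17.3% of 104 after tamoxifen (10.6% to 26.0%) and 0 of 59 after oil (0% to 6.06%). With 3 cells set in place of 0 the log2 ratio was 1.77, which leaves out counting error. Male alveolar macrophages were present after oil, where the comparison cells were 49 female, 43 male and 37 uncalled. Depth also differed, since the median female alveolar macrophage had 9845 UMIs after tamoxifen and 11831 UMIs after oil. At 3000 UMIs any of the 3 transcripts was found in 25.3% of 1287 female tamoxifen cells and 29.9% of 147 female oil cells (-0.24, -0.62 to 0.14), and in 18.4% of 103 male tamoxifen cells and 5 of 57 male oil cells (8.77%; 1.07, -0.27 to 2.41). Counting error thus covered the difference in this share in either sex. The summed level of the 3 genes did differ among male alveolar macrophages. It was 132 CPM (112 to 155) after tamoxifen and 32.4 CPM (19.2 to 51.3) after oil. Among female ones it was 178 CPM (171 to 186) and 167 CPM (149 to 187). The numbers of mice are not known, so sex and individual mice cannot be told apart.

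Within the subset, tamoxifen and oil members differed 2-fold in 62 genes that were higher after tamoxifen (1.93% of 3220) and 40 that were lower (1.24%, 3.17% in either direction). Among comparison cells the same counts were 16 (0.485%) and 37 (1.12%) of 3300, 1.61% in either direction. The 12 named higher genes fell into 2 kinds. S100a9, S100a8, Ngp, Camp, Lcn2, Ltf and Ifitm6, all known from neutrophils, went with the 2 members with neutrophil granule genes: S100a8 was at 2675 CPM in tamoxifen members and 77.3 CPM in oil members (5.11), but among members with at least 3 of the 5 markers the ratio was -0.00. The 7 neutrophil markers summed to 5532 CPM in tamoxifen members and 93.0 CPM in oil members, and to 129 and 96.4 CPM among those with at least 3 of the 5 markers.

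The other 5 named higher genes were Cxcl9, Hp, Nov, Cxcl10 and AW112010. Cxcl9 was at 135 CPM in tamoxifen members and 3.93 CPM in oil members (5.10, 3.54 to 7.38), and at 5.17 and 9.52 CPM in comparison cells (-0.88). AW112010 was at 693 and 73.3 CPM in members (3.24, 2.86 to 3.65) and 131 and 102 CPM in comparison cells (0.36). Cxcl10 was at 53.0 and 3.93 CPM in members (3.75, 2.18 to 6.05) and at 10.5 and 52.4 CPM in comparison cells (-2.32). Hp, the haemoglobin scavenger haptoglobin, was at 97.5 CPM in tamoxifen members, from 38 cells, and 2.62 CPM in oil members, from 2 UMIs (5.22, 3.35 to 8.27), and it was at 59.3 CPM among tamoxifen members with at least 3 of the 5 markers. Nov, a matricellular protein also called Ccn3, was at 72.8 CPM in tamoxifen members and had no UMI in 763723 oil member UMIs, so that it was higher by 4.21 or more on the log2 scale against a floor of 3 UMIs in the oil sum. Of the interferon-gamma induced genes 13 of 14 were above no difference in members (median 1.55) and 5 of 15 in comparison cells (median -0.21). Gbp2 (1.75) and Irf1 (2.30) were also past 2-fold in members.

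Of the 3 genes summed by the rule, Cfb was over 2-fold higher in tamoxifen than in oil members. The log2 ratio was 0.84 (0.62 to 1.07) for C3, 1.61 (1.09 to 2.17) for Cfb and 0.19 (-0.27 to 0.68) for Pla2g2d. Since these counts chose the cells, the ratios describe members that had already passed the threshold. The cells with Cd3d, Cd3e and Cd3g UMIs had 29.1 CPM of C3 after tamoxifen and 5.59 CPM after oil, and 7.42 and 0.762 CPM of Cfb. Macrophages with at least 10 UMIs of C1qa, C1qb and C1qc had 36.1 and 2.32 CPM of Cfb. Cells with at least 5 UMIs of Col1a2 and Dcn went the other way, at 24.5 and 31.9 CPM. A higher Cfb level after tamoxifen was thus not particular to the subset. The part of free RNA or doublets in the C3 and Cfb ratios was not tested.

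The 12 named lower genes were led by Fstl1 and by genes of lipid uptake. Fstl1, a secreted follistatin-like protein, was at 16.6 CPM in tamoxifen members and 267 CPM in oil members (-4.01, -4.48 to -3.56), and was found in 6 of 231 and 16 of 51 members. Fabp4 (191 and 574 CPM, -1.58), Fabp5 (616 and 1587 CPM, -1.36), Cd36 (174 and 515 CPM, -1.56) and Gpnmb (143 and 409 CPM, -1.51) were lower after tamoxifen, as were Igf1 (-1.55), Gstm1 (-1.58), the chemokine Ccl17 (157 and 554 CPM, -1.82) and the chemokine receptor Cxcr1 (-3.87). Of 24 lipid genes Fabp4, Fabp5, Cd36, Apoe and Gpnmb passed 2-fold downward and Fabp1 upward (750 and 213 CPM, 1.81). The Apoe call rested on the 1 oil cell with 91.3% of its oil-member UMIs: without that cell the levels were 312 CPM after tamoxifen and 66.3 CPM after oil, and the log2 ratio turned from -1.24 to 2.24. In comparison cells Fabp4 (-0.78), Fabp5 (-0.55) and Cd36 (-0.78) were lower by less than 2-fold and Gpnmb by -1.04. Bhlhe41 (-1.43), a repressor that maintains alveolar macrophage identity, Mgl2 (-2.85), a C-type lectin, and Gt(ROSA)26Sor (-2.08), a non-coding transcript of the Rosa26 locus, completed the list, and the last had a like ratio in comparison cells (-1.76).

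Some of these differences between libraries also divided male from female cells within the tamoxifen library, for genes chosen after their values were seen. The 18 male tamoxifen members had 41381 CPM of Chil3, against 8121 CPM in the 201 female tamoxifen members and 24892 CPM in the 42 female oil members. Inhba was at 1564, 177 and 417 CPM in these 3 groups, Ctsk at 1491, 357 and 903 CPM, Fabp5 at 1524, 492 and 1419 CPM, and Fstl1 at 153, 0.385 and 275 CPM. Cxcl9 was at 3.05, 123 and 4.72 CPM, AW112010 at 61.1, 773 and 69.2 CPM, and Gbp2 at 61.1, 164 and 47.2 CPM. On these 8 genes the summed levels of male tamoxifen members lay nearer to those of female oil members than to those of female tamoxifen members. Sums lean on cells with many UMIs, and single male members ran from 25 to 3375 UMIs of Chil3. Fstl1 was found in 5 of the 18 male members. The 8 genes were also picked for differing. H2-M2, which ranked first among the shared genes, did not follow them, at 351 CPM in male tamoxifen, 330.4 CPM in female tamoxifen and 291 CPM in female oil members. Among female cells alone the log2 ratios of tamoxifen over oil were -1.62 for Chil3, -1.24 for Inhba, -1.34 for Ctsk and 4.70 for Cxcl9, and over all members -1.09, -0.47, -0.74 and 5.10.

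Fstl1 and Cxcl9 were each found in a minority of members. After tamoxifen 6 members had a Fstl1 UMI (1 female and 5 male), 44 had a Cxcl9 UMI (39 female and 1 male), none had both and 181 had neither. After oil 16 had Fstl1, 3 had Cxcl9, 2 of them had both and 34 had neither. Members with Fstl1 had 61833 CPM of Chil3, 1978 CPM of Ctsk and 298 CPM of Cd74 after tamoxifen, and 44681, 1318 and 1594 CPM after oil. Tamoxifen members with Cxcl9 had 5980 CPM of Chil3, 728 CPM of Ctsk, 7376 CPM of Cd74 and 1016 CPM of H2-M2, and the 181 with neither gene had 9951, 349, 3072 and 153 CPM.

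Members were also set in terciles of their Chil3 level, which the rule only bounded from below, as a description. From the lowest to the highest tercile Cd74 was at 6722, 2590 and 1890 CPM in tamoxifen members (77 cells each) and at 5422, 3272 and 2519 CPM in oil members (17 cells each). Cxcl9 was at 235, 109 and 53.2 CPM in the tamoxifen terciles, and Fstl1 at 0, 168 and 628 CPM in the oil terciles. These genes ran in 1 direction over the terciles named. Inhba was at 198, 141 and 604 CPM after tamoxifen and at 127, 384 and 799 CPM after oil, and H2-M2 at 708, 126 and 127 CPM after tamoxifen and at 445, 90.03 and 343 CPM after oil, so the middle tercile had the lowest H2-M2 in the oil library and the lowest Inhba in the tamoxifen library.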

How the data were processed

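The deposited files are matrices of raw UMI counts per gene and barcode, made by the authors with Cell Ranger 5.0.1 on GRCm38 (mm10), per the submitters' processing notes, from 10x Single Cell 3' v3 libraries, per the labels' protocols. Barcodes with at least 300 genes and under 10% mitochondrial UMIs were kept. Doublets were left in; Scrublet, through Scanpy 1.11.5, was an alternative.

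UMIs of a group were summed per library and divided by the group's total (CPM), with exact conditional binomial intervals (SciPy 1.17.1). Shares carry Clopper-Pearson intervals. A list's measured genes had at least 20 UMIs over both groups, with 0.5 UMI in place of 0 in medians. The members, lists and settings were chosen with earlier results of these data known. Named genes were those past 2-fold in both libraries, ranked by the bound nearest to no difference in the weaker library, up to 15 each way, and between libraries up to 12 each way. Members of gene lists were also named. Some list members counted in the totals are not reported here by name. Genes named for sex, Fstl1, Cxcl9, H2-M2 or Chil3 splits were chosen after their values were seen. Tested on simulated counts with 200 genes changed 4-fold, the step called 198 of them (99%) in the tamoxifen comparison and 194 (97%) in the oil comparison. The simulated sums held counting error alone, with no spread between cells. They therefore do not show how reliable calls are where few cells hold most UMIs.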

Additional observations from a re-analysis of the deposited data

Results flagged for a closer look

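The share of the subset among alveolar macrophages, by raw UMIs, differed in direction between female and male cells. The log2 ratio of tamoxifen over oil was -0.87 among female cells (201 of 1305 against 42 of 149). Among male cells (18 of 104 against 0 of 59) it was 1.77 with 3 cells set in place of 0. At 3000 UMIs per cell the share with any of the 3 transcripts gave -0.24 (-0.62 to 0.14) among female and 1.07 (-0.27 to 2.41) among male cells. Counting error covered both on that measure. The summed level of the 3 genes among male cells was 132 CPM (112 to 155) after tamoxifen and 32.4 CPM (19.2 to 51.3) after oil. The median female cell had 9845 UMIs after tamoxifen and 11831 UMIs after oil. The difference between the sexes was not tested, since each condition was 1 library.

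The ratio of subset to comparison cells had opposite directions in the libraries for 2 genes. Cxcl10 was 2.33 after tamoxifen (53.0 CPM in members, 10.5 CPM in comparison cells) and -3.74 after oil (-6.06 to -2.11; 3.93 CPM in members, from 3 UMIs in 1 cell, and 52.4 CPM in comparison cells). Ifitm3, an interferon-induced restriction factor, was 2.07 after tamoxifen (53.0 and 12.6 CPM) and -1.54 after oil (38.0 and 110.4 CPM), and among tamoxifen members with at least 3 of the 5 alveolar macrophage markers it was -1.02. Neither difference between libraries was tested.

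Barcodes outside the quality filters also met the UMI rule, 17 of 2842 after tamoxifen (0.598%) and 5 of 3548 after oil (0.141%), and 16 and 5 of them had 10% or more mitochondrial UMIs.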

How the results depend on the processing

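The share of the subset among alveolar macrophages (log2 ratio -0.36) turned to 0.22 at 3000 and 0.89 at 1500 UMIs per cell, and to 1.60 of all kept cells. Among male cells it turned to 1.77, with 3 cells set in place of 0, and among female cells it was -0.87. In settings chosen after seeing the data it was 1.53 of all kept female cells and 1.07 for any UMI among male cells at 3000 UMIs. Of all kept male cells it was 2.34 in such a setting, again with 3 in place of 0. With mitochondrial limits of 25% and 5%, doublets removed, summed minima of 2 and 5 or 3 of 5 markers it lay between -0.41 and -0.10. Against comparison cells, a minimum of 10 UMIs gave 470 higher and 318 lower genes after tamoxifen and 381 and 639 after oil, and male tamoxifen cells alone gave 139 and 318. Lower genes after tamoxifen numbered 14 with comparison cells by markers alone, 11 with depth-matched cells and 11 among female cells. Between libraries a minimum of 10 UMIs gave 809 higher and 182 lower, and thinning to 3000 UMIs gave 238 and 15, where 30 UMIs are 43.7 CPM of the tamoxifen sum but 200 CPM of the oil sum. Named genes that turned were Pf4 after oil (-0.074, 3 of 5 markers), Marco after tamoxifen (-0.19, male cells), S100a8 between libraries (-0.0012, 3 of 5 markers) and, chosen after seeing the data, Apoe after oil without its highest cell (-0.48). Apart from those set by fewer cells or a lower minimum, the cause of these shifts was not tested. Median-of-ratios scaling moved all genes by under 0.1 and left the direction of the 15 named shared genes.

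Depth limits the oil side: 51 members hold 763723 UMIs, so 30 UMIs are 39.3 CPM there and 9.75 CPM in the tamoxifen sum. No paired analysis was possible because each condition was 1 library.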
